A study of Mus musculus with 4 samples.

Results

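The mRNAs of 32 spermatogonial marker genes were examined among the 21936 genes of a count table of RNA precipitated with TSSK2 from mouse testis. The genes were chosen by name as markers of spermatogonia and of their passage into differentiation. Each was looked up by Ensembl identifier in the mouse annotation GENCODE vM21 on GRCm38, and all 32 were found in the count table. Of these, 23 had enough counts to be tested and 9 did not.

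Spermatogonia are the mitotic germ cells at the base of the seminiferous tubule, and their undifferentiated fraction holds the stem cells of spermatogenesis. Glial cell line-derived neurotrophic factor (GDNF) from Sertoli cells maintains that fraction by signalling through the receptor pair GFRA1 and RET. Retinoic acid drives its transition to differentiating spermatogonia, which depend on the receptor tyrosine kinase KIT and later enter meiosis. TSSK2 is a testis-specific serine kinase of spermatids, many steps further along the same lineage.

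All samples came from testes of adult C57BL/6 mice, and no sample carried a mutation or a treatment of the animal. Germ cells were cross-linked with paraformaldehyde and the pellet of the sonicated lysate was immunoprecipitated with an anti-TSSK2 antibody (TSSK2-IP, 2 libraries) or, for the control, with mouse IgG (control IgG-IP, 2 libraries). Directional RNA libraries were made after reversal of the cross-links, without removal of rRNA, and compared to find mRNAs that came down with TSSK2. The labels number the replicates and do not say whether they came from separate animals, so the p-values measure the spread between these samples, which may be technical. TSSK2 was precipitated as a protein, so no mRNA level checks the labels. A level in such a bulk precipitate cannot tell fewer cells of a type from less RNA per cell or from less RNA captured.

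The total count was between 3938922 and 9858941 per library. Levels are given as normalized CPM, the count scaled to library size after TMM normalization, in which the 3 counts that a 0 allows amounted to 0.468 to 0.689 depending on the library, for counting error only. A gene was called when its log2 fold change of TSSK2-IP over control IgG-IP was at least 1 in size and its p from edgeR's quasi-likelihood test, adjusted by Benjamini-Hochberg over all 14722 genes tested, was no more than 0.05. The control libraries stood apart from each other. At least a 2-fold difference between the replicates was found for 43.1% of all genes tested in control IgG-IP and for 6.28% in TSSK2-IP. Results are therefore also given without each control library, a fit in which the lone control library is assumed to vary like the TSSK2-IP pair.

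No spermatogonial marker was called higher in TSSK2-IP (0 of 23, against 0.693% of all genes tested) and none was called lower (0 of 23, against 0.0%). DESeq2 also called 0 in either direction. At an unadjusted p under 0.05 by edgeR, only Foxo1 was on the higher side (1 of 23, against 8.34%) and only Gfra1 on the lower side (1 of 23, against 4.89%). The log2 fold changes ran from -1.80 for Gfra1 to 1.09 for Foxo1, with 12 of the 23 above 0 and 11 below. Their median was 0.15, beside a median of -0.02 over all genes tested. With DESeq2's size factors the same medians were 0.03 and -0.14, a shift of the whole table that moved the markers with it. For 4 markers neither TSSK2-IP value reached down to a control value (17.4%, against 27.3% of all genes tested), and these were Id4, Foxo1, Kit and Rarg. Both TSSK2-IP values were below the control values for 5 markers (21.7%, against 21.6%), which were Gfra1, Ret, Bcl6b, Itga6 and Dnmt3b. The first share was below that of the whole table and the second close to it.

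**Figure D1:**
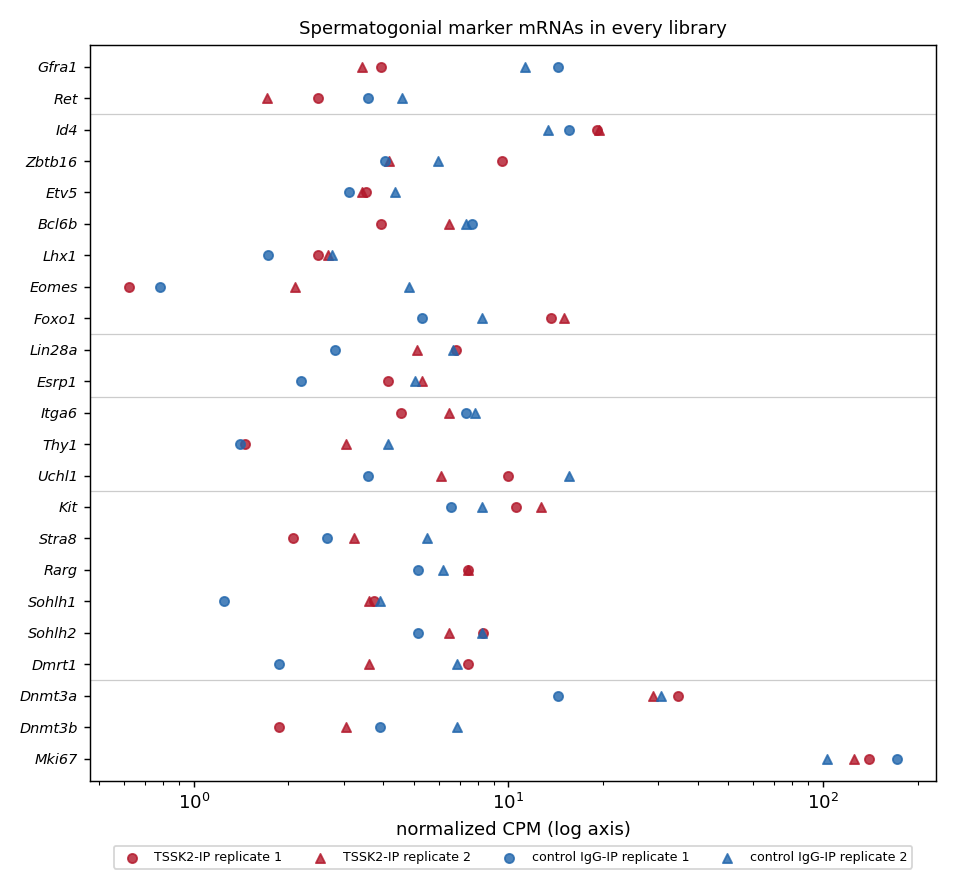
Normalized CPM (log axis) of the 23 spermatogonial marker mRNAs tested, in each TSSK2-IP library (red) and each control IgG-IP library (blue), with circles for replicate 1 and triangles for replicate 2 and lines between groups of genes. Gfra1 lay at 3.94 and 3.43 in TSSK2-IP against 14.4 and 11.3 in control IgG-IP, and most other markers showed overlapping groups.

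Both receptors of GDNF were lower in each TSSK2-IP library than in either control library, but neither passed the test. Gfra1 (ENSMUSG00000025089, chromosome 19 of GRCm38 from 58235604 to 58455909, minus strand) encodes the GDNF-binding co-receptor of stem cell-containing spermatogonia. It had 19 and 18 counts in TSSK2-IP and 92 and 49 in the control, or 3.94 and 3.43 against 14.4 and 11.3 normalized CPM. Every TSSK2-IP value lay far below every control value, and the replicates of each group lay close together. The mean of 3.68 ± 0.363 in TSSK2-IP was below the control mean of 12.8 ± 2.19 (SD, n = 2 each), 3.47-fold lower in the fit. In log2 terms the difference was -1.80 (standard error 0.51, 95% interval -2.90 to -0.70, adjusted p = 0.173, edgeR), so Gfra1 missed the threshold after adjustment. It passed in 3 alternative fits. Its adjusted p by edgeR was 0.0312 without a filter on low counts and 0.00791 without control IgG-IP replicate 1, where the log2 fold change was -1.60, and the log2 fold change was -2.01 without control IgG-IP replicate 2, where it was called too. In the other alternatives with both libraries of each group, the adjusted p ranged from 0.108 to 0.256. Without TSSK2-IP replicate 1 or 2 Gfra1 was not called, at a log2 fold change of -1.90 or -1.70. The spread in these fits came from the control pair. Annotated exons of an antisense gene, Gm16277, overlap 7.60% of the exon bases of Gfra1, and the strand setting of the counting is not given in the sources used here. The same doubt about reads from an overlapping gene on the opposite strand holds for 13 of the 32 markers, with 7.78% of the exon bases for Foxo1 and 18.1% for Uchl1.

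Ret encodes the signalling receptor tyrosine kinase that pairs with GFRA1. Its normalized CPM was 2.49 and 1.71 in TSSK2-IP and 3.59 and 4.60 in control IgG-IP. The groups did not overlap, but the counts were low, at 12 and 9 against 23 and 20. The log2 fold change of -0.95 (95% interval -2.61 to 0.71, adjusted p = 0.587, edgeR) did not pass the test. Leaving out control replicate 1 or 2 gave -1.12 or -0.82.

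Among 12 transcription factors of undifferentiated spermatogonia, 7 were tested. Foxo1 (ENSMUSG00000044167, chromosome 3 from 52268336 to 52353221, plus strand), a forkhead factor needed for stem cell maintenance, stood highest relative to the control. Its counts were 66 and 79 in TSSK2-IP and 34 and 36 in control IgG-IP, or 13.7 and 15.0 against 5.30 and 8.27 normalized CPM. Both TSSK2-IP values lay above both control values. The mean of 14.4 ± 0.955 in TSSK2-IP stood against 6.79 ± 2.10 in the control (SD, n = 2 each), 2.13-fold higher in the fit. In log2 terms Foxo1 stood at 1.09 (standard error 0.47, 95% interval 0.08 to 2.10, adjusted p = 0.351, edgeR), which did not pass after adjustment. Foxo1 was called without control IgG-IP replicate 2, at a log2 fold change of 1.38, and not without control IgG-IP replicate 1, at 0.80.

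Id4, an inhibitor of DNA binding that marks the stem cell fraction, was the highest of these factors per kilobase of exon, at 4.38 normalized CPM. It had 19.1 and 19.4 normalized CPM in TSSK2-IP and 15.6 and 13.3 in control IgG-IP. All TSSK2-IP values were above the control values by a small margin, and the log2 fold change of 0.41 had a 95% interval from -0.47 to 1.28 (adjusted p = 0.665, edgeR). Zbtb16, the zinc finger repressor PLZF, had 9.54 and 4.19 in TSSK2-IP and 4.06 and 5.97 in control IgG-IP. Its TSSK2-IP replicates were 2.25-fold apart, further than the groups.

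Etv5, Bcl6b and Lhx1 encode transcription factors that respond to GDNF. Etv5 had 3.52 and 3.43 normalized CPM in TSSK2-IP and 3.12 and 4.37 in control IgG-IP. Bcl6b had 3.94 and 6.47 against 7.65 and 7.35. Lhx1 had 2.49 and 2.66 against 1.72 and 2.76. Bcl6b was lower than the control in both TSSK2-IP libraries, while the other two overlapped, and the log2 fold changes were -0.10 for Etv5, -0.52 for Bcl6b and 0.22 for Lhx1. The 95% interval of each held 0. Eomes, a T-box factor of a small stem cell subset, had 3 and 11 counts in TSSK2-IP and 5 and 21 in control IgG-IP. Its replicates differed 3.02-fold in TSSK2-IP and 5.76-fold in control IgG-IP, and leaving out control replicate 1 or 2 gave log2 fold changes of -1.78 or 0.75.

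The other 5 factors and 4 further markers were too low to test. The POU factor Pou3f1 had 3 and 3 counts in TSSK2-IP and 3 and 15 in control IgG-IP. The paired box factor Pax7 had 9 and 4 against 5 and 26, and Sall4, a zinc finger factor of germ line progenitors, had 7 and 15 against 3 and 8. T, the T-box factor Brachyury, had 3 and 2 counts against 0 and 5, and the 0 allows up to 0.468 normalized CPM. In these 4 genes, control IgG-IP replicate 1 held fewer counts than replicate 2 although it was the deepest library. Neurog3, a helix-loop-helix factor that appears before differentiation, had 1 and 2 counts against 3 and 6. Its exons share 273 bases with Fam241b on the opposite strand, which is also in the count table, so its few counts are uncertain.

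The RNA-binding proteins among the markers were Nanos2, Nanos3, Lin28a and Esrp1. Nanos2, a translational repressor that preserves the stem cell state, had 3 and 4 counts in TSSK2-IP and 6 and 4 in control IgG-IP, and 49.0% of its exon bases overlap the antisense gene Gm45058. Its paralog Nanos3 had 4 and 11 counts against 3 and 0, and the 0 allows up to 0.689 normalized CPM. Lin28a, which blocks the maturation of let-7 miRNAs, had 6.84 and 5.14 normalized CPM in TSSK2-IP and 2.81 and 6.66 in control IgG-IP. Esrp1, a splicing regulator, had 4.15 and 5.33 against 2.18 and 5.05. In both tested mRNAs only control IgG-IP replicate 1 was low. The log2 fold changes were 0.36 for Lin28a and 0.41 for Esrp1, and they were -0.15 and -0.08 without that library.

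Surface and cytoplasmic markers used to sort or stain spermatogonia overlapped between the groups except for Itga6. This integrin subunit had 4.56 and 6.47 normalized CPM in TSSK2-IP and 7.33 and 7.81 in control IgG-IP, with a log2 fold change of -0.45 (95% interval -1.62 to 0.71, adjusted p = 0.730, edgeR). Thy1, a surface glycoprotein that T cells also carry, had 1.45 and 3.04 against 1.40 and 4.14. The 9 markers of peritubular, endothelial and blood cells summed to 38.6 and 50.4 normalized CPM in TSSK2-IP and 35.4 and 57.9 in control IgG-IP, none was at 0 in any library, and the T cell gene Cd3e had 4 and 17 against 9 and 12 counts, while the part of blood cells in the level of Thy1 was not tested. The deubiquitinase Uchl1 had 9.95 and 6.09 in TSSK2-IP and 3.59 and 15.6 in control IgG-IP, so both TSSK2-IP values lay between the control values. Its log2 fold change was -0.24 with all libraries. Without control IgG-IP replicate 1 it was -0.96 (adjusted p = 0.0441, edgeR), and without replicate 2 it was 1.10 (adjusted p = 0.0375, edgeR), so the choice of control library turned its direction. Tspan8, a tetraspanin, had 4 and 12 counts against 2 and 7, and Upp1, uridine phosphorylase, had 3 and 8 against 5 and 14. In a fit without the filter on low counts, none of the 9 untested markers reached an unadjusted p under 0.05 (0 of 9), and their adjusted p by edgeR ranged from 0.492 to 1.00.

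All 6 markers of differentiation and of the retinoic acid response were tested, with 5 log2 fold changes above 0 and 1 below. Kit, the receptor of differentiating spermatogonia, had 10.6 and 12.7 normalized CPM in TSSK2-IP and 6.55 and 8.27 in control IgG-IP. The groups did not overlap, and the means were 11.7 ± 1.54 and 7.41 ± 1.22 (SD, n = 2 each). Its log2 fold change of 0.66 (95% interval -0.35 to 1.67, adjusted p = 0.535, edgeR) did not pass the test. Leydig cells also express Kit. Their 6 markers summed to 38.4 and 38.2 normalized CPM in TSSK2-IP and 16.1 and 35.8 in control IgG-IP, with Insl3 at 0 counts in control IgG-IP replicate 1. All 5 that were tested had log2 fold changes above 0, from 0.005 to 0.95, against 7243 of all 14722 genes tested. These 5 were also all lower in control IgG-IP replicate 1 than in replicate 2. So were 54.4% of all genes tested, and 84.4% of those below 10 normalized CPM. The median log2 fold change of the 5 Leydig cell markers, 0.69 with all libraries, became 0.37 or 1.09 without control replicate 1 or 2. Over all genes tested the median was 0.003 or 0.15 in these fits. The part of these cells in the level of Kit was not tested.

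Rarg encodes the retinoic acid receptor of spermatogonia and Stra8 a retinoic acid-induced factor of premeiotic cells. Rarg had 7.46 and 7.42 normalized CPM in TSSK2-IP and 5.15 and 6.20 in control IgG-IP. Stra8 had 2.07 and 3.23 against 2.65 and 5.51. Rarg was thus slightly above the control in each library and Stra8 overlapped it, with log2 fold changes of 0.39 and -0.60 and 95% intervals from -0.76 to 1.55 and from -2.24 to 1.05.

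Sohlh1 and Sohlh2 are helix-loop-helix factors that start differentiation. Sohlh1 had 3.73 and 3.62 normalized CPM in TSSK2-IP and 1.25 and 3.91 in control IgG-IP. Sohlh2 had 8.29 and 6.47 against 5.15 and 8.27. Dmrt1, which holds spermatogonia back from meiosis, had 7.46 and 3.62 against 1.87 and 6.89. In these 3 mRNAs control IgG-IP replicate 1 had the lowest value of the 4 libraries. Their log2 fold changes of 0.54, 0.15 and 0.37 were 1.49, 0.46 and 1.49 without control IgG-IP replicate 2, where Dmrt1 was called, and -0.08, -0.16 and -0.32 without control IgG-IP replicate 1. Sertoli cells also express Dmrt1, and their 10 markers summed to 57.4 and 44.0 normalized CPM in TSSK2-IP and 18.9 and 52.2 in control IgG-IP. None was at 0 in any library, and 6 of 6 tested markers were lower in control IgG-IP replicate 1 than in replicate 2. So were 54.4% of all genes tested, and 84.4% of those below 10 normalized CPM. The part of Sertoli cells in the level of Dmrt1 was not tested.

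Neither de novo DNA methyltransferase passed the test with all libraries. Dnmt3a had 34.6 and 28.9 normalized CPM in TSSK2-IP and 14.4 and 30.6 in control IgG-IP. Dnmt3b had 1.87 and 3.04 against 3.90 and 6.89. The groups overlapped for Dnmt3a and not for Dnmt3b, whose log2 fold change of -1.11 (95% interval -2.65 to 0.43, adjusted p = 0.496, edgeR) was the lowest after Gfra1. Dnmt3a had a log2 fold change of 0.51, which became 0.06 without control replicate 1 and 1.09 without control replicate 2, where it was called.

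Mki67 (chromosome 7 from 135689784 to 135716361, minus strand), a nuclear protein of cycling cells that is not restricted to spermatogonia, was the highest marker per kilobase of exon, at 13.4 normalized CPM. It had 676 and 659 counts in TSSK2-IP and 1105 and 448 in control IgG-IP, or 140.1 and 125 against 172 and 103 normalized CPM. Both TSSK2-IP values lay between the control values. The log2 fold change was -0.05 (95% interval -1.09 to 0.98, adjusted p = 0.974, edgeR), and leaving out control replicate 1 or 2 gave 0.37 or -0.43.

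**Figure D2:**
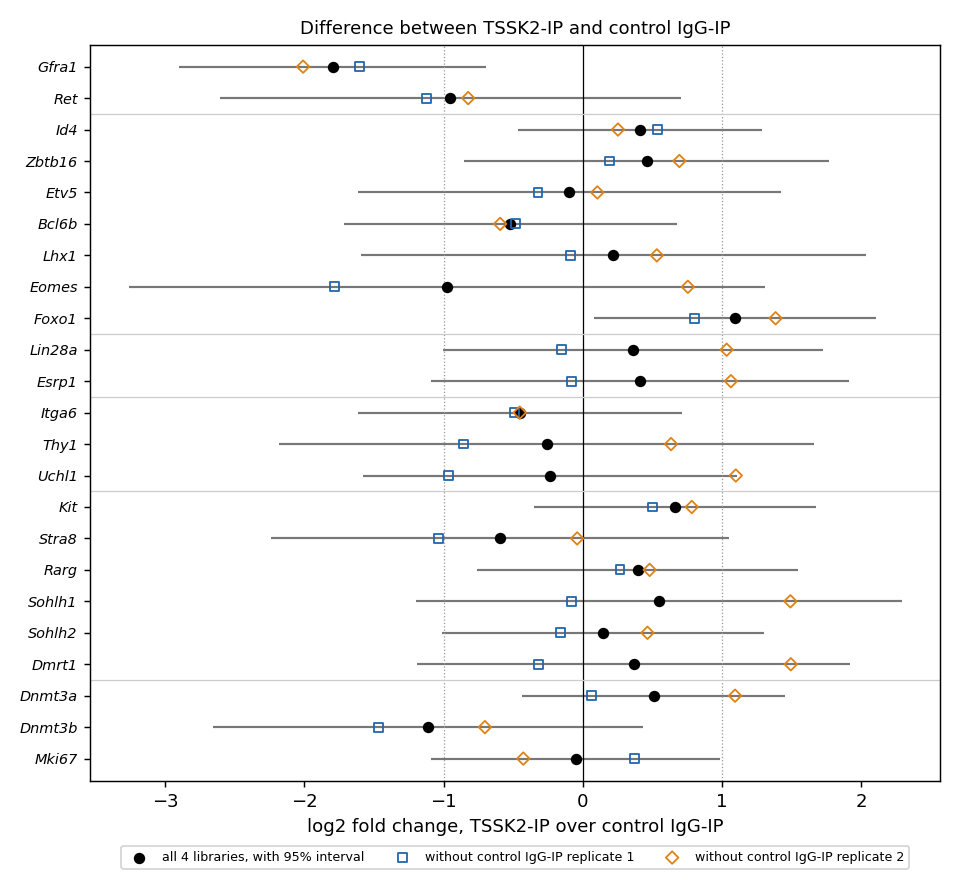
Log2 fold change of TSSK2-IP over control IgG-IP for the 23 markers tested with edgeR, with 95% intervals (black, all 4 libraries) and values without either control library (blue squares and orange diamonds); dotted lines mark a 2-fold difference. The intervals of Gfra1 (-2.90 to -0.70) and Foxo1 (0.08 to 2.10) exclude 0, and the open symbols fall on opposite sides of 0 for 11 of the 23 markers.

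The precision of these values set what could be seen. The 95% interval of the log2 fold change held 0 for 21 of the 23 markers and lay wholly within a 2-fold difference for none of them (0 of 23). It excluded a 2-fold increase in TSSK2-IP for 6 markers, which were Gfra1, Ret, Bcl6b, Itga6, Dnmt3b and Mki67. For another 6, Id4, Zbtb16, Foxo1, Kit, Rarg and Dnmt3a, it excluded a 2-fold decrease. For the rest the interval held a 2-fold difference in both directions. An exact permutation test of a single gene over these 4 libraries, two-sided, has a smallest p of 0.333, so every p rests on the model across genes.

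The direction of 11 of the 23 markers differed with the control library used. Control IgG-IP replicate 1 was lower than replicate 2 for 19 of the 23 markers tested, against 54.4% of all genes tested. This went with abundance. Below 10 normalized CPM, where 19 of the 23 markers lay, 84.4% of all genes tested were lower in replicate 1, and so were 17 of those 19 markers. From 10 to 50 normalized CPM the shares were 49.8% of genes and 2 of 3 markers, and at 50 or more they were 16.8% of genes and 0 of 1 marker, Mki67. The shares of the markers were thus close to those of genes at their level, over few markers. The control replicates were at least 2-fold apart for 9 markers (39.1%, against 43.1% of all genes tested) and the TSSK2-IP replicates for 4 (17.4%, against 6.28%), namely Zbtb16, Eomes, Thy1 and Dmrt1. Their TSSK2-IP counts were low, at 46 and 22, 3 and 11, 7 and 16, and 36 and 19 in that order. The share for the TSSK2-IP pair was not set against genes of the same level.

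**Figure D3:**
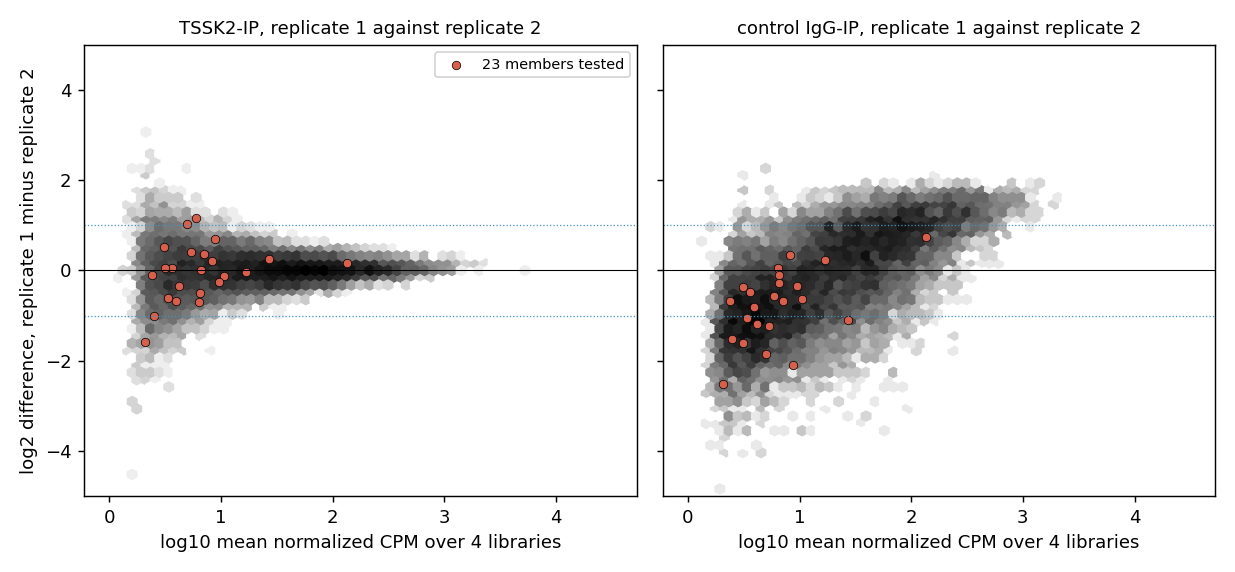
Log2 difference in normalized CPM between replicate 1 and replicate 2 of TSSK2-IP (left) and of control IgG-IP (right) against the log10 mean normalized CPM over 4 libraries, with all genes tested as grey bins (darker for more genes), the 23 markers as red points and dotted lines at a 2-fold difference. The replicates are at least 2-fold apart for 6.28% of all genes tested in TSSK2-IP and for 43.1% in control IgG-IP. In control IgG-IP 17 of the 19 markers below 10 normalized CPM, like 84.4% of all genes there, lie below 0.

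Without control IgG-IP replicate 1, Gfra1 was the only marker called (1 of 23 lower, against 2.16% of all genes tested, and 0 of 23 higher, against 5.47%). Without control IgG-IP replicate 2, 4 markers were called higher (17.4%, against 19.4%), which were Foxo1, Uchl1, Dmrt1 and Dnmt3a, and 1 was called lower (4.35%, against 17.9%), again Gfra1. The median log2 fold change of the markers was -0.16 and 0.53 in these fits, beside 0.003 and 0.15 over all genes tested. The sign was the same in both for 12 markers. Of these, Gfra1 was the only one called in both.

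The markers were minor mRNAs of these precipitates. Divided by the length of annotated exon, their mean level over the 4 libraries ran from 0.232 normalized CPM per kilobase for T to 13.4 for Mki67, which was above 83.7% of the genes in the table. After Mki67 came Uchl1 at 5.40, Id4 at 4.38, Sohlh2 at 2.98 and Sohlh1 at 2.42 normalized CPM per kilobase. The median marker stood at 0.898, against 1.35 for all genes, and 21 of the 32 were below that median gene. On the same scale, the median was 34.6 for 12 spermatocyte markers and 645 for 10 spermatid markers, the stages that fill most of the adult tubule. It was 1.07 for Sertoli cell, 1.54 for Leydig cell and 0.933 for peritubular, endothelial and blood cell markers, so the spermatogonial markers were at the level of the somatic markers.

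The summed level of all 32 markers was 310 and 291 normalized CPM in TSSK2-IP and 291 and 301 in control IgG-IP. Mki67 made up much of it. Without Mki67 the sums were 170.0 and 165 in TSSK2-IP and 119 and 198 in control IgG-IP, and both TSSK2-IP values lay between the control values. By comparison, the 10 spermatid markers summed to 5279 and 4833 in TSSK2-IP and 12674 and 6328 in control IgG-IP. Control IgG-IP replicate 1 was thus the highest. Akap4, a sperm tail scaffold protein with the most counts among them, had a log2 fold change of -1.74 (adjusted p = 0.492, edgeR). For Akap4 this became -0.65 or -2.40 without control replicate 1 or 2. The markers with the most counts for the other cell types had log2 fold changes of -0.37 (Ldhc, spermatocytes), 0.58 (Clu, Sertoli cells), 0.69 (Cyp17a1, Leydig cells) and -0.01 (Myh11, peritubular cells). Leaving out control replicate 1 or 2 gave 0.25 or -0.84 for Ldhc, 0.078 or 1.28 for Clu, 0.24 or 1.27 for Cyp17a1 and -0.47 or 0.59 for Myh11, so the direction of Ldhc and Myh11 depended on the control library. With all libraries, none of the spermatid or spermatocyte markers was called in either direction (0 of 10 and 0 of 12 by edgeR). This stood against 0.693% of all genes tested called higher and 0.0% lower. At an unadjusted p under 0.05 there were 0 as well, against 8.34% higher and 4.89% lower. Markers of both types were called without control IgG-IP replicate 2, as were many genes of the whole table in that fit. Without control replicate 1 or 2 the median log2 fold change was 0.03 or -0.20 for spermatid and 0.004 or -0.17 for spermatocyte markers. Over all genes tested the median was 0.003 or 0.15 in these fits.

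**Figure D4:**
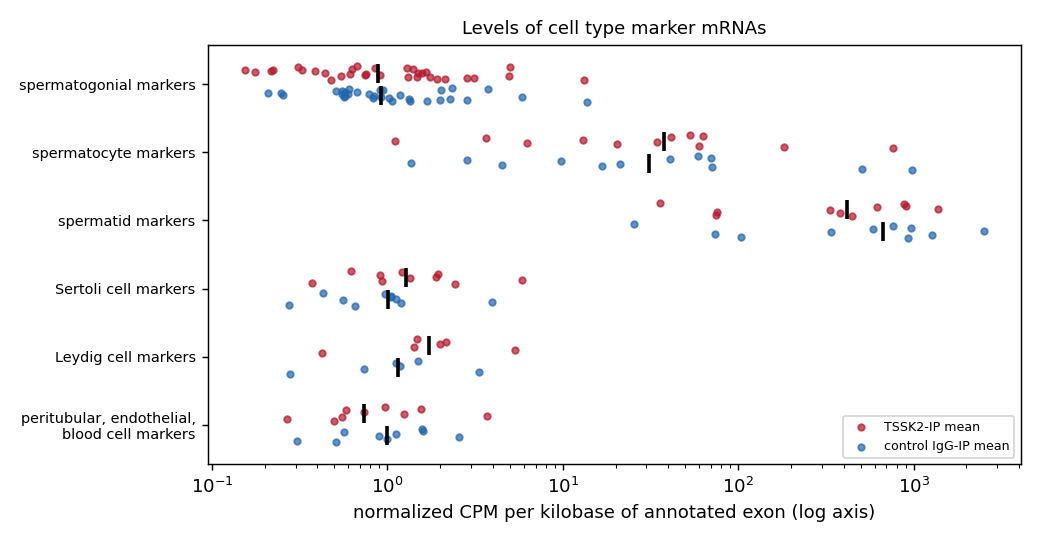
Mean normalized CPM per kilobase of annotated exon (log axis) of each marker gene in TSSK2-IP (red) and control IgG-IP (blue), by cell type, with a bar at the median. Spermatogonial markers centre near 0.9, at the level of the somatic markers, while spermatocyte markers centre on 34.6 and spermatid markers on 645 over both groups.

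Genes outside the marker list but in the same pathways were examined for comparison. Of 24 further spermatogonial genes 12 were tested, none was called (0 of 12), and 1 was on the higher side (8.33%, against 8.34% of all genes tested) and 0 on the lower side (against 4.89%) at an unadjusted p under 0.05. This was Egr4, a GDNF-responsive zinc finger factor, with 7.67 and 4.76 normalized CPM in TSSK2-IP and 1.87 and 2.30 in control IgG-IP, at 37 and 25 against 12 and 10 counts. The groups did not overlap, and the log2 fold change was 1.57 (95% interval 0.07 to 3.07, adjusted p = 0.360, edgeR). Leaving out control replicate 1 or 2 gave 1.42 or 1.66, and Egr4 was called without replicate 2. Next came Glis3 at 0.76, and on the lower side Dusp4, a MAP kinase phosphatase, at -0.50 (-0.052 or -0.88 without control replicate 1 or 2) and Tex14, a protein of the bridges between germ cells, at -0.33.

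In the retinoic acid pathway 15 of 19 genes were tested and none was called (0 of 15), with 4 on the higher side (26.7%, against 8.34% of all genes tested) and 1 on the lower side (6.67%, against 4.89%) at an unadjusted p under 0.05. The genes on the higher side were Rxra, Rara, Cyp26b1 and Rdh10. The receptor genes Rxra and Rara had the smallest p, and no other retinoid receptor gene of the list was on this side at that threshold. Rxra had 105.9 and 88.9 normalized CPM in TSSK2-IP and 31.7 and 42.3 in control IgG-IP, and Rara had 38.6 and 33.1 against 6.71 and 21.4. Neither overlapped the control, and their log2 fold changes were 1.40 (adjusted p = 0.201) and 1.37 (adjusted p = 0.284) by edgeR. Leaving out control replicate 1 or 2 gave 1.21 or 1.57 for Rxra, which was called both times, and 0.75 or 2.36 for Rara, whose control replicates were 3.17-fold apart. Aldh1a2, which makes retinoic acid, was on the lower side at 41.3 and 47.6 against 218 and 59.7. The control replicates of Aldh1a2 were 3.64-fold apart. Its log2 fold change was -1.64 with all libraries, and -0.42 or -2.34 without control IgG-IP replicate 1 or 2. Rdh11, a retinol dehydrogenase, was at -1.29, with control replicates 3.43-fold apart, and leaving out control replicate 1 or 2 gave -0.14 or -1.98.

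Among genes of GDNF-RET and KIT signalling 29 of 31 were tested and none was called (0 of 29), with 2 on the higher side (6.90%, against 8.34%) and 3 on the lower side (10.3%, against 4.89%) at an unadjusted p under 0.05. Yes1, a SRC family kinase, had 81.5 and 81.4 normalized CPM in TSSK2-IP and 25.3 and 25.3 in control IgG-IP. All replicates of a group lay close together and the groups stood apart, with a log2 fold change of 1.69 (adjusted p = 0.0845, edgeR). Yes1 was called when either control library was left out. Shc1, an adaptor of receptor tyrosine kinases, had 39.0 and 23.8 against 8.43 and 20.0, with a log2 fold change of 1.15 (adjusted p = 0.338, edgeR). For Shc1 this became 0.65 or 1.84 without control replicate 1 or 2. Mapk3, a MAP kinase, was on the lower side at a log2 fold change of -1.18, and Pik3cd, a catalytic subunit of PI3-kinase, at -1.24. Their control replicates were 2.38-fold and 2.67-fold apart. Without control IgG-IP replicate 1 or 2 the log2 fold changes were -0.42 or -1.73 for Mapk3 and -0.36 or -1.83 for Pik3cd.

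**Figure D5:**
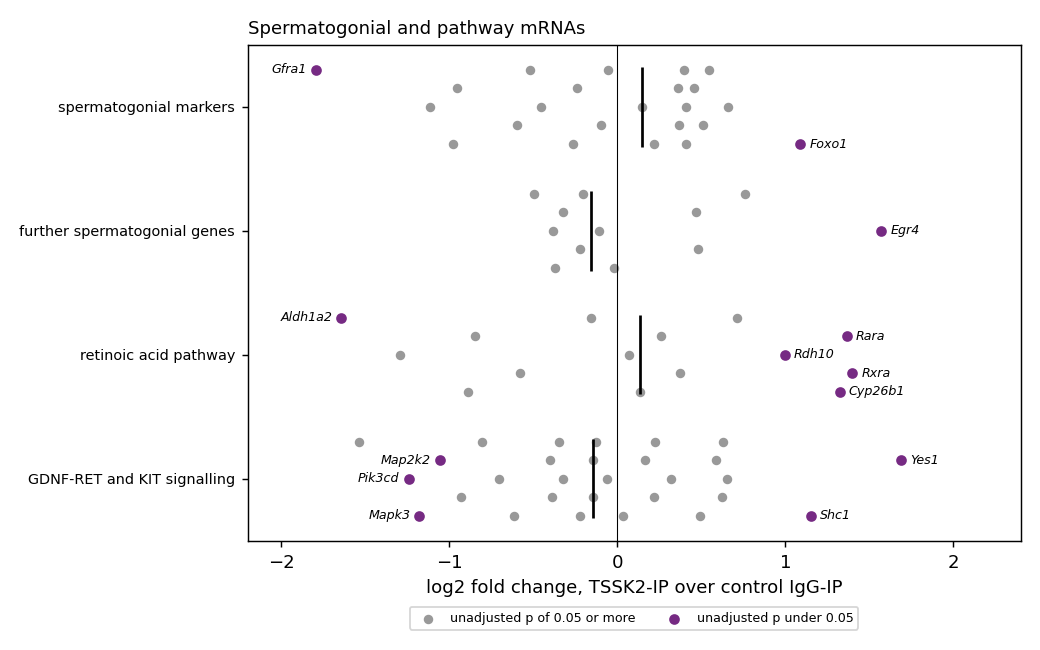
Log2 fold change of TSSK2-IP over control IgG-IP for the genes tested in each list, with a bar at the median and genes at an unadjusted p under 0.05 by edgeR in purple with their names; points are spread vertically only to separate them. Gfra1 at -1.80 and Foxo1 at 1.09 are the outermost spermatogonial markers, and no gene of any list was called in the fit shown, of all 4 libraries with the filter on low counts.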

How the data were processed

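Per the labels, RNA of 2 anti-TSSK2 and 2 mouse IgG precipitates was sequenced. The authors used Trimmomatic 0.39 for trimming, STAR 2.7.10a for mapping to GRCm38 and featureCounts 2.0.3 for counting (versions from the submitters' processing notes), and deposited whole-number gene counts without normalization. Identifiers were matched to GENCODE vM21 (21894 of 21936), which also gave exon lengths and overlaps.

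edgeR 4.0.16 in R 4.3.3 was fitted to the 14722 genes kept by filterByExpr (TMM, glmQLFit, glmQLFTest, common dispersion 0.135). Standard errors came from the log2 fold change and F. Library totals were 4158034 and 4491749 in TSSK2-IP and 9858941 and 3938922 in control IgG-IP. Alternatives were DESeq2 1.42.0, its size factors, upper-quartile factors, a fit of all 21267 genes with a count, a minimum of 10 counts per library (12540 genes), a replicate block and leaving out each library. All markers were named, and from each other list the 2 genes with the smallest p in each direction and, for cell types, the marker with the most counts. The markers and lists were chosen with earlier results of these data known. Bins of abundance were set after seeing the data. edgeR with TMM and DESeq2 were tried on simulated counts with the same dispersion in both groups, whereas the control replicates here stood further apart. The other alternatives were not tried on simulated counts. DDX4-IP libraries were not analysed here, and 1 gene of the signalling list is not reported here.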

Additional observations from a re-analysis of the deposited data

How the results depend on the processing

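No marker was called under DESeq2, DESeq2's size factors, upper-quartile factors, at least 10 counts in every library or the replicate block, and without a filter on low counts 1 was called lower, Gfra1. When each library was left out in turn, the number of markers called ranged from 0 to 4 higher and from 0 to 1 lower, further spermatogonial genes from 0 to 1 higher, retinoic acid genes from 0 to 6 higher and 0 to 2 lower, and GDNF-RET and KIT genes from 0 to 3 higher and 0 to 7 lower. All of these calls arose without a control library, and the largest counts without control IgG-IP replicate 2, where the spread came from the TSSK2-IP pair. Calls in both directions were also frequent among all genes tested in that fit, at the shares given above beside those of the markers. Whether a list differed from the whole table in these counts was not tested, and no conclusion is drawn from them. Over all genes, 102 higher and 0 lower calls became 20 and 0 with upper-quartile factors, 29 and 0 with at least 10 counts, 283 and 24 without a filter, 152 and 7 with DESeq2, and from 24 to 2853 higher and 0 to 2637 lower with a library left out. The labels give both groups the same replicate numbers without saying what they share, and the differences between replicates correlated at 0.12 between the groups over genes, which with 2 numbers does not settle whether the samples were paired. With the replicate block 274 genes were called higher and 3 lower, and the log2 fold change of Uchl1 became 0.015. That of Mki67 became 0.026 with at least 10 counts in every library. Leaving out a library turned the direction of 12 markers, whose log2 fold changes ranged from -0.25 to 0.93 for Zbtb16, -0.32 to 0.10 for Etv5, -0.091 to 0.53 for Lhx1, -2.10 to 0.75 for Eomes, -0.15 to 1.03 for Lin28a, -0.085 to 1.06 for Esrp1, -0.90 to 0.63 for Thy1, -0.96 to 1.10 for Uchl1, -0.084 to 1.49 for Sohlh1, -0.16 to 0.46 for Sohlh2, -0.32 to 1.49 for Dmrt1 and -0.43 to 0.37 for Mki67. The cause of these changes was not tested.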
